A study of Homo sapiens with 8 samples.

Results

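The immediate early genes and AP-1 factors described here are JUN, JUNB, JUND, FOS, FOSL1, FOSL2, EGR1, ATF3, IER2 and DUSP1. These 10 genes were chosen by symbol from knowledge of the family, when earlier results of these data were already known. All 10 have a value among the 12939 genes listed in each of the 8 libraries. The cells were CSCs, the cancer stem cell fraction of MDA-MB-231, a breast cancer line without estrogen, progesterone or HER2 receptors. All groups carried GFP under the Oct4a regulatory region and a puromycin-selected RFP vector, which expressed scramble shRNA in 3 control libraries, CDH2 shRNA in 3 libraries and Cx43 shRNA in 2 libraries. CDH2 encodes N-cadherin and Cx43 is the gap junction protein connexin 43. The CDH2 shRNA cells were a clone picked for its efficient knockdown, and Oct4a stands in for stemness only through the reporter. Cells high in GFP and RFP were sorted and rested overnight in culture before total RNA was taken. Neither targeted transcript (CDH2 and GJA1, the gene of Cx43) was analysed here, and the labels could not be checked against them.

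Immediate early genes are transcribed within minutes of a growth factor or stress signal, without new protein synthesis, mainly through MAPK cascades that act on factors already bound at their promoters. JUN, JUNB and JUND pair with FOS, FOSL1 or FOSL2 through leucine zippers to form AP-1, which binds DNA and sets genes of proliferation, invasion and stress. FOSL1 (Fra-1) is known as an abundant Fos protein of triple negative breast cancer cells, and ATF3 is a stress-induced relative that also pairs with Jun proteins. EGR1 is a zinc finger factor, IER2 a nuclear regulator, and DUSP1 a phosphatase that switches MAPKs off.

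The values are log2(CPM + 1), where CPM are read counts scaled to library size, and a difference of 1 on this scale is about 2-fold. No counts are given, so the depth of a library is unknown and the spread between libraries sets the precision. Nothing states that libraries of a group came from separate cultures, and p-values then measure only the spread between these libraries. All 6 markers of the line that were looked at (VIM, CD44, KRT18, KRT8, AXL and CAV1) lay between 6.35 and 9.81 in every library, ERBB2 between 5.16 and 5.52, while ESR1 and PGR were not analysed here. Of 12 markers of leukocytes, marrow stroma and endothelium, CD68, PDGFRB, COL1A1, LEPR and PECAM1 had values, from 1.67 to 5.73, and the other 7 were not analysed here. The 15 genes of the mitochondrial genome took 0.60% to 1.02% of the summed CPM in scramble libraries, 1.17% to 2.04% with CDH2 shRNA and 1.25% to 2.37% with Cx43 shRNA. The part of this shift in the results below was not tested.

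Promoters of immediate early genes are known for short elements that bind serum response factor, CREB, ATF and AP-1 proteins. RefSeq promoter sequences (GRCh38.p14, 250 bases before to 50 after the start) matched 9 of the 10 genes, with 2 start sites for ATF3, and FOSL1 had no entry. They were searched on both strands for the AP-1 site TGANTCA, the cAMP response element TGACGTCA, the JUN-type variant TGACATCA or TGATGTCA, and the CArG box bound by serum response factor. The searched motifs do not overlap each other in these windows. Shown are the genes with the largest difference in Cx43 knockdown (DUSP1 and JUN), the lowest p in CDH2 knockdown (JUND) and a serum-response promoter (EGR1), 160 bases each, with the motif in capitals. The windows are chr5:172771196-172771355 on the minus strand for DUSP1, chr1:58784048-58784207 on the minus strand for JUN, chr19:18281693-18281852 on the minus strand for JUND and chr5:138465319-138465478 on the plus strand for EGR1.
DUSP1: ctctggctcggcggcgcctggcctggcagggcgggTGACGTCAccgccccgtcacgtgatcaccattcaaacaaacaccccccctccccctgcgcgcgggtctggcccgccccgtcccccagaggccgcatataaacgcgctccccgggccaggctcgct
JUN: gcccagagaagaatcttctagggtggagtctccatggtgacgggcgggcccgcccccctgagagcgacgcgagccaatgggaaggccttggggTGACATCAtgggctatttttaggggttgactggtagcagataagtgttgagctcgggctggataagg
JUND: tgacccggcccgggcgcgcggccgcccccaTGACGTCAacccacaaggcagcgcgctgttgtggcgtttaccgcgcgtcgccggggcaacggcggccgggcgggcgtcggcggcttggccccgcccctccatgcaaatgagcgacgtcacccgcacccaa
EGR1: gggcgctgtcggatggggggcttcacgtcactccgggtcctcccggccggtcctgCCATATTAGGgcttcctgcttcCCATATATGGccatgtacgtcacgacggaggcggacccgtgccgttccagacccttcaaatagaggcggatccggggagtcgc
The cAMP response element begins at position -125 from the start of DUSP1 and -200 from that of JUND, and 1.85% of the 35116 promoters in the table hold it. The JUN-type variant begins at -67 in JUN and at -123 in ATF3, and 2.61% of promoters hold it. EGR1 has 2 CArG boxes, at -105 and -83, a motif found in 1.29% of promoters. FOSL2 has an AP-1 site from position 4 after its start, as 7.71% of promoters have somewhere in the window. JUNB, FOS and IER2 had none of these letters in their windows.

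Each knockdown was compared with scramble to ask which transcripts change when CDH2 or Cx43 is reduced. All genes were fitted together with limma, with the replicate number as a block. Deviations from the group means cancel within each replicate number, so a fit without the block counts too many degrees of freedom. Its p-values, given below for some genes, are then too small. With the block they may still be too small, as the residuals vary in 2 directions where 3 degrees of freedom are counted. A gene is past threshold where the Benjamini-Hochberg adjusted p is under 0.05 and the groups differ at least 1.66-fold, for CDH2 knockdown, or 1.5-fold, for the other comparisons. In CDH2 knockdown 0 of the 10 genes were past threshold, where 2.06% of all genes were. The count was also 0 in Cx43 knockdown, beside 1.18% of all genes, and between the knockdowns, beside 0%. With the adjusted p alone the count was again 0 in each, against 14.3%, 1.21% and 0% of all genes. An unadjusted p under 0.05 was reached by JUND and IER2 in CDH2 knockdown (37.5% of all genes), by JUN and DUSP1 in Cx43 knockdown (21.6%), and by JUNB, JUND and DUSP1 between the knockdowns (20%). These 2, 2 and 3 of 10 genes are below, near and above the shares of all genes. Libraries of the groups did not overlap for 2 of the 10 genes in CDH2 knockdown, against 51.9% of all genes. For Cx43 knockdown they did not overlap for 6 genes, against 52.8% of all genes, and between the knockdowns for 6 genes, against 50.8%. The median difference of the 10 genes was -0.07 in CDH2 knockdown, beside 0.01 over all genes, 0.14 in Cx43 knockdown, beside 0.04, and -0.36 between the knockdowns, beside -0.03.

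JUN, the founding AP-1 subunit, is a gene of 1 exon in its main transcript on chromosome 1 of hg38, from 58776845 to 58784048. Its log2(CPM + 1) was 7.61, 7.41 and 7.78 in scramble replicates 1 to 3, 7.97, 7.86 and 7.65 with CDH2 shRNA, and 8.10 and 8.40 with Cx43 shRNA. Both Cx43 knockdown libraries lay above all the others, and the CDH2 knockdown libraries overlapped with scramble. JUN differed from scramble by 0.65 in Cx43 knockdown (standard error 0.18, 95% interval 0.20 to 1.10, adjusted p = 0.132 from limma), which is short of the threshold. In CDH2 knockdown its difference was 0.22 (interval -0.16 to 0.60, adjusted p = 0.329). In bulk RNA, a change in every cell and a change in the share of cells that express a gene cannot be told apart.

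JUNB, often induced beside FOS and a weaker activator than JUN, lies on chromosome 19 from 12791486 to 12793315. It stood at 6.45, 6.33 and 6.52 in scramble, 6.52, 6.14 and 6.20 in CDH2 knockdown, and 6.59 and 7.09 with Cx43 shRNA. Replicate 2 of Cx43 knockdown was the high library, while the other Cx43 library was just above scramble. The difference from scramble was 0.41 in Cx43 knockdown (interval -0.11 to 0.92, adjusted p = 0.319; 0.02 without Cx43 shRNA replicate 2 and 0.79 without replicate 1) and -0.15 in CDH2 knockdown (interval -0.59 to 0.28, adjusted p = 0.556).

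JUND, the Jun protein that is present in resting cells and is known to slow proliferation, lies on chromosome 19 from 18279694 to 18281622. Its values were 6.47, 6.33 and 6.59 in scramble, 6.11, 6.04 and 5.89 in CDH2 knockdown, and 6.38 and 6.58 with Cx43 shRNA. All 3 CDH2 knockdown libraries lay below the other 5 libraries. Its difference in CDH2 knockdown was -0.45 (standard error 0.12, interval -0.74 to -0.16), with an adjusted p of 0.0552 from limma, just outside 0.05 and below the fold change of the threshold. Without the replicate block that adjusted p was 0.0082, and the fold change kept it from being called there too. With the block, it was 0.264 without scramble replicate 1, 0.137 without CDH2 shRNA replicate 1 and 0.141 without CDH2 shRNA replicate 2. It was 0.0176 without scramble replicate 2 and 0.0477 without scramble replicate 3, also short of the fold change. In Cx43 knockdown JUND differed from scramble by 0.02 (interval -0.32 to 0.35, adjusted p = 0.953), and CDH2 minus Cx43 knockdown was -0.47 (interval -0.80 to -0.13, adjusted p = 0.17).

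**Figure D1:**
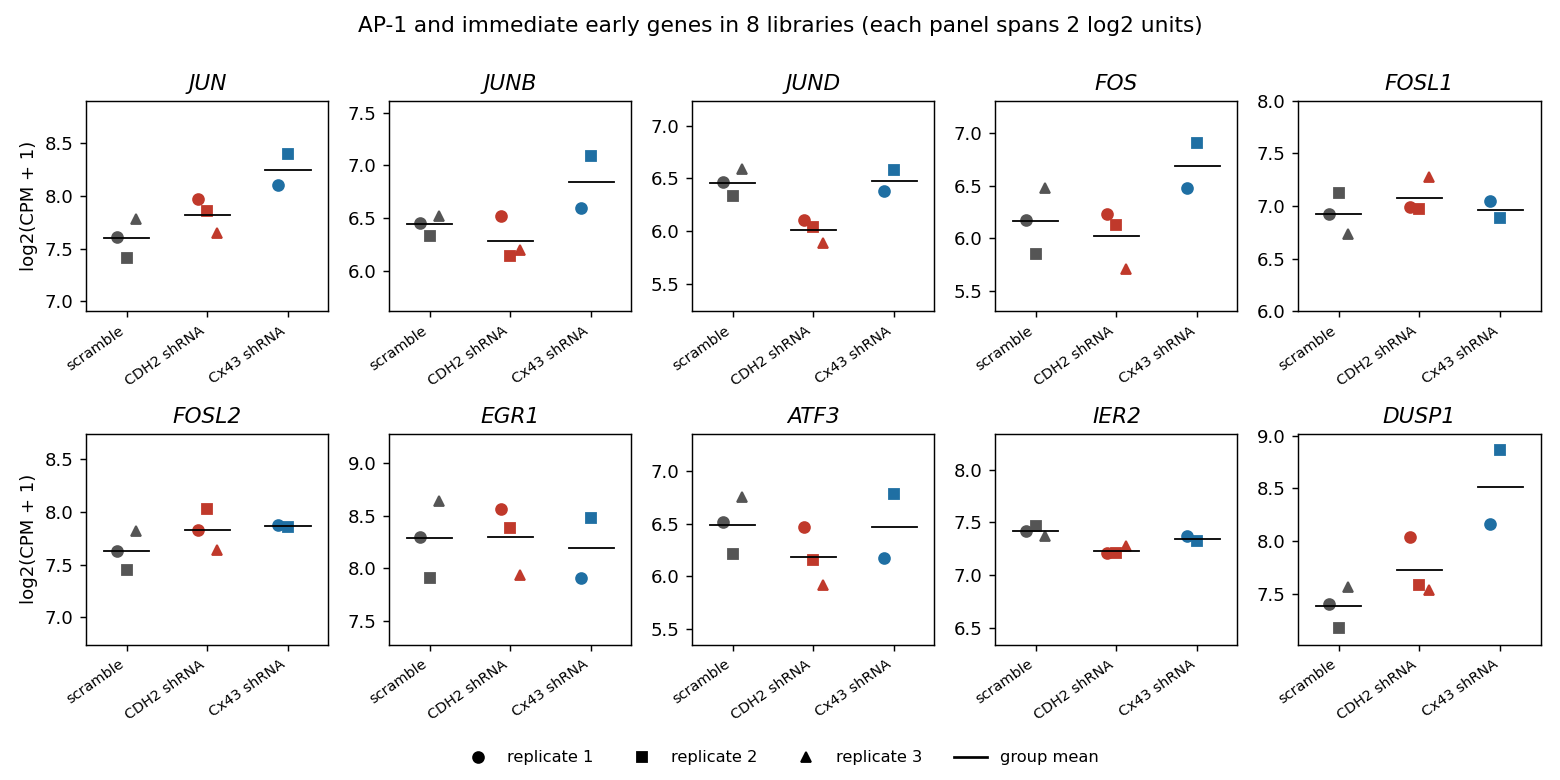
Values of log2(CPM + 1) of the 10 genes (vertical axis, 2 log2 units in each panel) in scramble, CDH2 shRNA and Cx43 shRNA libraries, with a symbol for each replicate number and a line at the group mean. JUND is lowest in the 3 CDH2 shRNA libraries, JUN and DUSP1 are highest in the 2 Cx43 shRNA libraries, and the groups overlap in EGR1, ATF3 and FOSL1.

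FOS, the classic immediate early gene, has 4 exons on chromosome 14 from 75278826 to 75282230. It was at 6.18, 5.85 and 6.48 in scramble, 6.23, 6.13 and 5.71 in CDH2 knockdown, and 6.48 and 6.91 with Cx43 shRNA. The lower Cx43 library and the highest scramble library were both at 6.48 after rounding, and these groups met there without overlapping. The difference was 0.53 in Cx43 knockdown (interval -0.15 to 1.21, adjusted p = 0.327; 0.20 without scramble replicate 2 or Cx43 shRNA replicate 2 and 0.85 without Cx43 shRNA replicate 1) and -0.14 in CDH2 knockdown (interval -0.72 to 0.44, adjusted p = 0.684).

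FOSL1, on chromosome 11 from 65892049 to 65900573, was the steadiest of the Fos genes between groups. Its values were 6.92, 7.12 and 6.73 in scramble, 6.99, 6.97 and 7.27 in CDH2 knockdown, and 7.05 and 6.88 with Cx43 shRNA, and the groups overlapped. The differences were 0.15 in CDH2 knockdown (interval -0.21 to 0.51) and 0.04 in Cx43 knockdown (interval -0.38 to 0.46), with adjusted p-values of 0.469 and 0.915. FOSL2 (Fra-2), a late Fos protein on chromosome 2 from 28392448 to 28417317, stood at 7.63, 7.45 and 7.82 in scramble, 7.83, 8.03 and 7.64 in CDH2 knockdown, and 7.88 and 7.86 with Cx43 shRNA. The Cx43 libraries were just above the highest scramble library. Its differences were 0.20 and 0.23, with adjusted p-values of 0.354 and 0.478.

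DUSP1, which dephosphorylates p38, JNK and ERK and is itself induced by them, lies on chromosome 5 from 172768096 to 172771195 and had the largest difference of the 10 genes. It was at 7.40, 7.17 and 7.56 in scramble, 8.04, 7.58 and 7.53 in CDH2 knockdown, and 8.16 and 8.86 with Cx43 shRNA. Both Cx43 libraries lay above all others, and replicate 2 was higher than replicate 1 by more than any 2 scramble libraries differed. Against scramble the difference was 1.14 (standard error 0.29, interval 0.43 to 1.85, adjusted p = 0.113 from limma), a fold of 2.20, and it did not pass the test. In CDH2 knockdown it was 0.34 (interval -0.26 to 0.94, adjusted p = 0.348). CDH2 minus Cx43 knockdown was -0.80 (interval -1.50 to -0.09, adjusted p = 0.213).

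These calls depended on how the replicates entered the fit. Without the replicate block, DUSP1 (adjusted p = 0.0155) and JUN (0.0184) were past threshold in Cx43 knockdown, 2 of the 10 genes. In all, 532 genes were past it, against 153 with the block. The standard error of DUSP1 was then 0.241, against 0.29 with the block, as too many degrees of freedom are counted without it. Without scramble replicate 3 or without CDH2 shRNA replicate 3, which gave the same values, DUSP1 (difference 1.23, adjusted p = 0.00196), JUN (0.74, 0.00348) and FOS (0.68, 0.0114) passed in Cx43 knockdown, beside 730 genes in all. Without scramble replicate 2, DUSP1 passed (0.93, adjusted p = 0.0408), beside 468 genes in all. Between the knockdowns DUSP1 (-0.75, 0.0369) and FOS (-0.60, 0.0442) passed without scramble replicate 2, beside 435 genes in all. DUSP1 (-0.70, 0.0348) passed there without either replicate 3, beside 545 genes in all. With all libraries, 0 genes passed between the knockdowns. Without either Cx43 library none of the 10 genes passed and 0 genes passed in all, and the lone Cx43 library was then assumed to vary like the other groups. Under all settings tried, the difference of DUSP1 in Cx43 knockdown stayed above 0, between 0.61 and 1.66, as did that of JUN, between 0.42 and 0.88.

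EGR1, the zinc finger factor with the CArG boxes shown above, is on chromosome 5 from 138465479 to 138469303. Its values were 8.30, 7.91 and 8.64 in scramble, 8.56, 8.38 and 7.94 in CDH2 knockdown, and 7.91 and 8.48 with Cx43 shRNA. The spread within each group was wider than the difference between groups, which was 0.01 in CDH2 knockdown (interval -0.67 to 0.69) and -0.09 in Cx43 knockdown (interval -0.89 to 0.71), with adjusted p-values of 0.984 and 0.897. These intervals are wide, so EGR1 could not be called steady. ATF3, on chromosome 1 from 212565334 to 212620777, was at 6.51, 6.21 and 6.75 in scramble, 6.47, 6.15 and 5.92 in CDH2 knockdown, and 6.17 and 6.78 with Cx43 shRNA. Its differences were -0.31 (interval -0.91 to 0.30) and -0.01 (interval -0.72 to 0.69), with adjusted p-values of 0.394 and 0.985. IER2, on chromosome 19 from 13150411 to 13154911, varied least, at 7.42, 7.47 and 7.37 in scramble, 7.21, 7.21 and 7.28 in CDH2 knockdown, and 7.37 and 7.32 with Cx43 shRNA. The CDH2 libraries lay below all scramble libraries by a small margin, and the difference of -0.19 (standard error 0.08) had an adjusted p of 0.133, or 0.0167 without the replicate block, where the fold change still fell short.

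**Figure D2:**
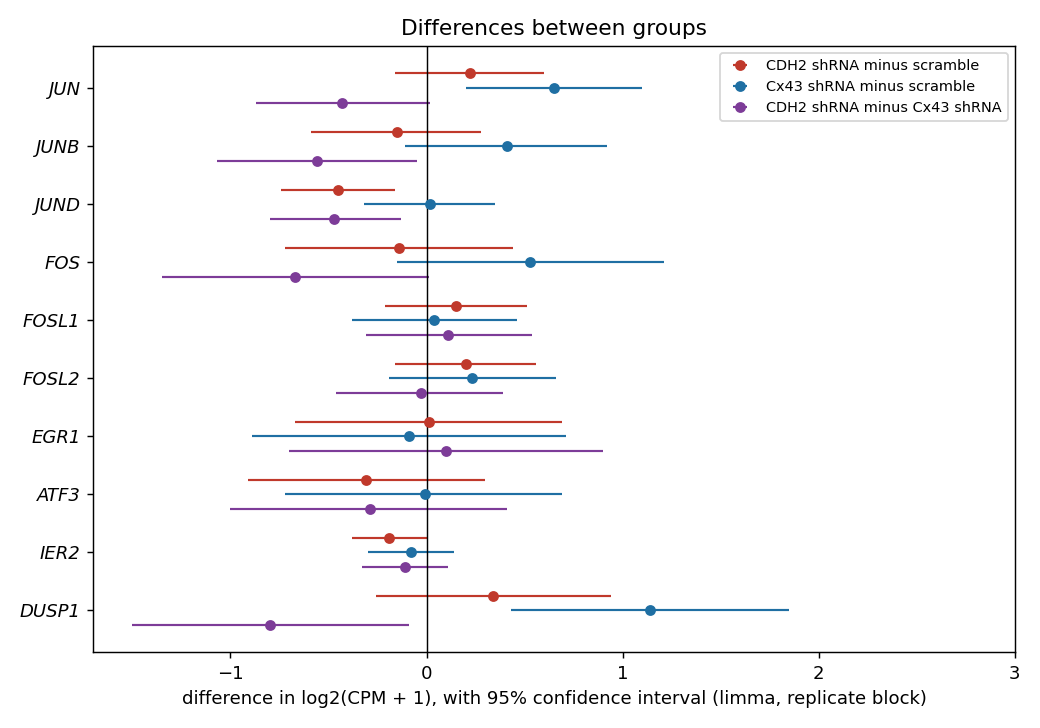
Differences in log2(CPM + 1) between groups (horizontal axis) for each of the 10 genes, as limma estimates with 95% confidence intervals from the fit with the replicate block. The intervals are widest for EGR1, ATF3, DUSP1 and FOS and narrowest for IER2. Before adjustment the intervals of JUN and DUSP1 in Cx43 knockdown, of JUND and, barely, IER2 in CDH2 knockdown, and of JUNB, JUND and DUSP1 between the knockdowns leave out 0.

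To compare levels between genes, CPM were divided by the length of the main GENCODE v44 transcript. In scramble CSCs, EGR1 had the highest level, at 101 ± 25.2 CPM per kb (SD, n = 3), followed by DUSP1 at 82.6 ± 11.4, IER2 at 80.8 ± 2.62, FOSL1 at 71.0 ± 9.59 and JUN at 59.6 ± 7.48. JUNB (46.8 ± 3.16), ATF3 (46.3 ± 8.59), JUND (45.3 ± 3.99), FOS (34.2 ± 7.51) and FOSL2 (29.6 ± 3.89) were lower. Among neighbours in this order, the libraries of JUN and JUNB did not overlap, while those of each other neighbouring pair did. In CDH2 knockdown, DUSP1 (105 ± 21.7) and EGR1 (101 ± 21.5) were highest and overlapped, and FOS was lowest at 30.8 ± 5.61. In Cx43 knockdown, DUSP1 was highest at 142 and 231 CPM per kb, above EGR1 at 76.4 and 113.

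The makeup of the Jun transcripts, looked at after the values had been seen, was more even within groups than the levels of the single genes. Of the summed CPM per kb of JUN, JUNB and JUND, JUND took 29.8%, 30.2% and 29.7% in scramble, 21.8%, 23.7% and 23.1% in CDH2 knockdown, and 24.0% and 21.6% with Cx43 shRNA. All 5 knockdown libraries lay below all 3 scramble libraries. JUN took 39.1%, 38.1% and 40.4% in scramble, 47.5%, 49.8% and 46.8% with CDH2 shRNA, and 46.9% and 45.7% with Cx43 shRNA. The share of JUNB overlapped, lying at 29.9% to 31.7% with scramble shRNA and at 26.6% to 32.7% in the 5 knockdown libraries. In CDH2 knockdown the lower JUND level went with this, whereas in Cx43 knockdown the JUND level was near that of scramble and the JUN level was the higher. Both knockdowns are set against the same scramble libraries, and no test was made of these shares, which were picked from the data. Among the Fos genes, FOSL1 took the largest share in each library, from 40.5% to 60.2%, and FOSB the smallest, from 3.59% to 7.42%. The place of FOSL1 above FOSL2 rests on the transcript lengths used, 1702 bases for FOSL1 and 6713 for FOSL2. Before division by length, FOSL2 was above FOSL1 in each library. FOS took 25.8% and 33.6% in Cx43 knockdown, overlapping with 19.2% to 28.3% in scramble.

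**Figure D3:**
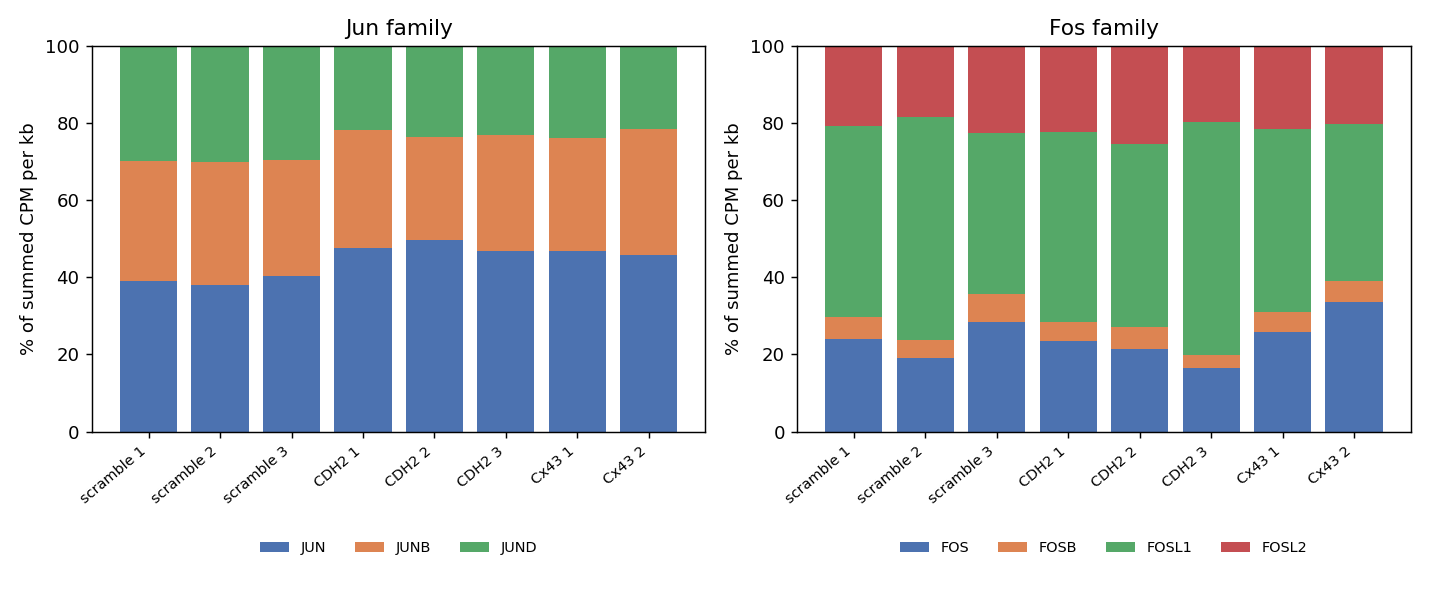
Share of each gene in the summed CPM per kb of its family (vertical axis, percent) for the Jun genes (left) and the Fos genes (right) in each of the 8 libraries. The JUND part is 29.7% to 30.2% with scramble shRNA and 21.6% to 24.0% with either knockdown, while the Fos shares vary within groups.

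Of the 10 genes, 8 were highest in scramble replicate 3 and lowest in replicate 2, and FOSL1 and IER2 had the opposite order. Of all genes, 48.1% had the first order and 48.4% the second, so replicate 1 lay between the other scramble libraries in nearly every gene. In replicate 3, which has no Cx43 library, the deviations of the scramble and CDH2 libraries from their group means were equal and opposite, as they are in every gene. They were 0.31 and -0.31 for FOS, 0.36 and -0.36 for EGR1 and 0.26 and -0.26 for ATF3. Within replicate 1, CDH2 knockdown was higher than scramble in 7 genes and lower in 3, within replicate 2 in 5 and 5, and within replicate 3 in 1 and 9. The medians of these differences were 0.07, 0.12 and -0.25, beside 0, 0 and 0.02 over all genes. With opposite deviations, a gene high in scramble replicate 3 is low in CDH2 shRNA replicate 3. The split in replicate 3 is thus tied to the scramble order. The single higher gene in replicate 3 was FOSL1, at 0.54. FOS, for example, differed by 0.05, 0.29 and -0.76 in the 3 pairs, and EGR1 by 0.26, 0.47 and -0.70. JUND was lower in all 3 pairs, by -0.36, -0.29 and -0.70, and so was IER2, by -0.21, -0.26 and -0.10. In Cx43 knockdown, 6 genes were higher in replicate 1 and 8 in replicate 2, with medians of 0.13 and 0.57 beside 0.06 and 0.02 over all genes. DUSP1 differed by 0.76 and 1.70, JUN by 0.49 and 0.99, and FOS by 0.30 and 1.06, each further from scramble in replicate 2.

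**Figure D4:**
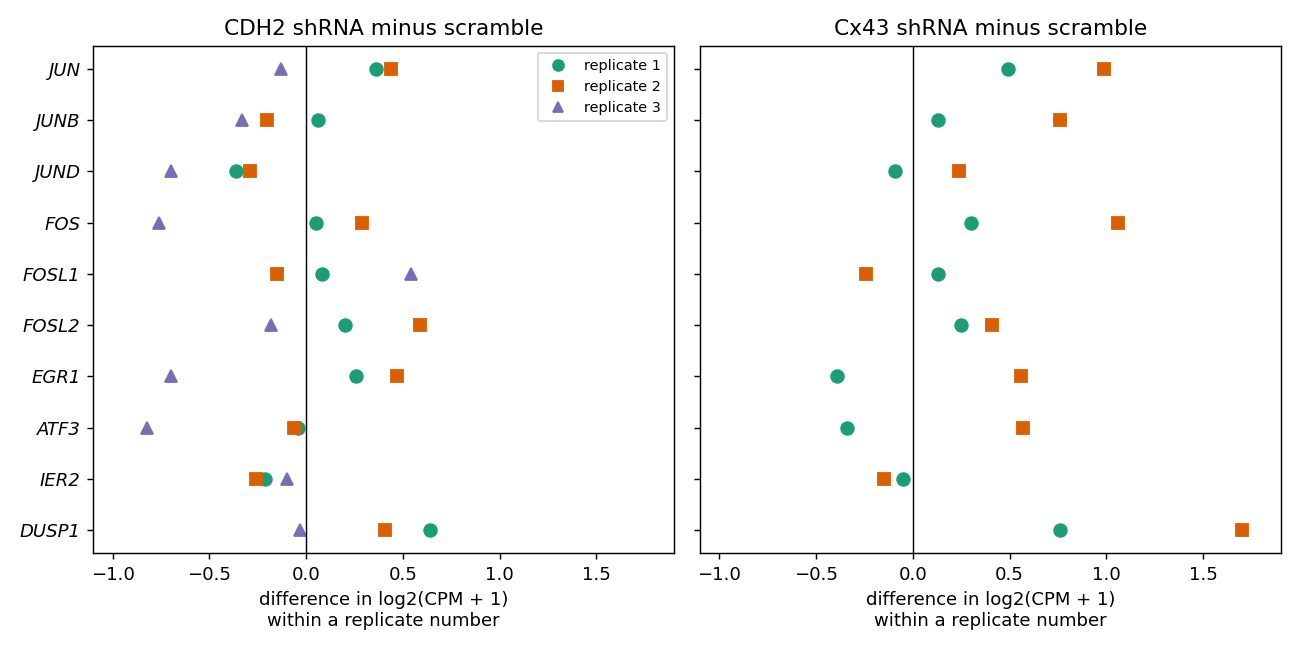
Knockdown minus scramble in log2(CPM + 1) (horizontal axis) within each replicate number for the 10 genes, in CDH2 knockdown (left, 3 pairs) and Cx43 knockdown (right, 2 pairs). In CDH2 knockdown, 9 of the 10 genes are below 0 in replicate 3, where the scramble and CDH2 shRNA deviations are equal and opposite. In Cx43 knockdown JUN, JUNB, FOS, FOSL2 and DUSP1 are above 0 in both replicates.

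Cell handling is known to induce immediate early and heat shock genes, and the libraries differed in the latter too. The summed level of 11 heat shock genes was 6378, 7469 and 5560 CPM in scramble replicates 1 to 3, 5869, 6101 and 7340 in CDH2 knockdown, and 6970 and 5816 with Cx43 shRNA. In scramble this sum was highest in replicate 2 and lowest in replicate 3, the reverse of FOS, EGR1 and ATF3. As nearly every gene takes either this order or its reverse, the order by itself cannot speak to handling. None of the 11 genes passed the test in either knockdown, and 0 had an adjusted p under 0.05, with an unadjusted p under 0.05 in 2 genes for CDH2 and 0 for Cx43. The stress-induced HSPA1A, whose reads could be shared with its near-identical copy HSPA1B, had a difference of -1.34 in CDH2 knockdown (adjusted p = 0.0955), the largest of the list, and the small heat shock gene HSPB1 one of -0.66 (adjusted p = 0.0579). Without the replicate block HSPA1A was past threshold there (0.0352). The part of handling in the values of the 10 genes was not tested.

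Other genes of the pathway were taken from 7 lists with 120 genes, of which 107 were analysed. Over these lists 0 genes were past threshold upward and 3 downward in CDH2 knockdown, where 2.06% of all genes passed in either direction, and 0 and 4 with Cx43 shRNA, where 1.18% passed. Of 8 analysed bZIP partners of AP-1, JDP2, which pairs with Jun proteins and represses AP-1 targets, was past threshold in both knockdowns. It stood at 5.29, 5.25 and 5.34 in scramble, 4.21, 4.33 and 4.21 in CDH2 knockdown, and 4.59 and 4.51 with Cx43 shRNA, with no overlap between any groups. In CDH2 knockdown JDP2 fell by 1.04 log2 units (standard error 0.08, adjusted p = 0.016 from limma), and in Cx43 knockdown by 0.74 (standard error 0.10, adjusted p = 0.0376). BATF3 had an adjusted p of 0.0379 in CDH2 knockdown at a difference of -0.51, short of the fold change, and FOSB, the fourth Fos gene, had differences of -0.25 and 0.09 (adjusted p = 0.5 and 0.886).

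Of 28 other immediate early genes, the CDH2 comparison had 1 past threshold and the Cx43 comparison 0. This was IER5L, an IER2 relative, which fell by 1.03 in CDH2 knockdown (adjusted p = 0.0293), from 5.98, 6.23 and 5.76 to 4.79, 4.90 and 5.19. In Cx43 knockdown its difference was -0.93 (adjusted p = 0.102). ARC, a synaptic immediate early gene, had the widest difference, -2.12 in Cx43 knockdown and -0.80 in CDH2 knockdown, and passed in neither. Without the replicate block ARC (adjusted p = 0.0152), EGR2 (0.0122), EGR3 (0.0499), MYC (0.00113) and IER5L (0.0111) were past threshold in Cx43 knockdown. In that fit EGR3 (0.0155) and IER5L (0.00297) were past it in CDH2 knockdown. With the block EGR3 was at -0.75 (adjusted p = 0.0635) in CDH2 knockdown and -0.68 (0.194) in Cx43 knockdown. EGR2, a relative of EGR1, was at -0.55 (adjusted p = 0.0732) in CDH2 knockdown and -0.80 (adjusted p = 0.108) in Cx43 knockdown, and ZFP36, which speeds the decay of short-lived mRNAs, at 0.77 (adjusted p = 0.233) in Cx43 knockdown. MYC differed by 0.60 in Cx43 knockdown with an adjusted p of 0.0539. With CDH2 shRNA, IER3 (-0.59, adjusted p = 0.0257) and CSRNP1 (0.39, 0.0491) were under 0.05 in adjusted p there without reaching the fold change. The list median was 0.04 with CDH2 shRNA and -0.07 with Cx43 shRNA. An unadjusted p under 0.05 was reached by 7 of the 28 genes with either shRNA, beside 37.5% of all genes for CDH2 and 21.6% for Cx43.

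Of 13 genes that feed back on MAPK signaling, DUSP10, a phosphatase of p38 and JNK, fell by 0.71 in Cx43 knockdown (adjusted p = 0.037), from 3.80, 3.77 and 3.82 to 3.08 and 3.11. In CDH2 knockdown it was at 3.90, 3.91 and 3.87, a difference of 0.09 that did not pass. The ERK phosphatase gene DUSP6 had a difference of 1.08 in Cx43 knockdown, from 4.99, 4.89 and 5.03 to 5.81 and 6.30, with an adjusted p of 0.0678, or 0.00472 and past threshold without the replicate block. SPRY1, a Sprouty inhibitor of growth factor signaling, was at 0.56 (adjusted p = 0.191) and DUSP8 at -0.51 (adjusted p = 0.0908) in the same comparison. Of 21 kinases and SRF cofactors none was past threshold, while 7 had an unadjusted p under 0.05 in CDH2 knockdown, beside 37.5% of all genes, and 5 in Cx43 knockdown, beside 21.6%. In CDH2 knockdown MAPK3, which encodes ERK1, was at -0.51 (adjusted p = 0.0223), RPS6KA3, an ERK-activated kinase, at 0.57 (0.0356) and ELK3, a ternary complex factor, at 0.40 (0.0394), each short of the fold change. With Cx43 shRNA MAP2K3, a kinase of p38, was at -0.69 (adjusted p = 0.0908), and 0.00677 in the fit without the block, where it passed. Of 14 AP-1 target genes none was past threshold, with an unadjusted p under 0.05 in 5 of them for CDH2 and 2 for Cx43, read against the same shares of all genes, and the list medians were -0.10 with CDH2 shRNA and -0.14 with Cx43 shRNA. MMP9, a gelatinase, was at -0.74 (adjusted p = 0.0671) in the Cx43 comparison and MMP14, a membrane-bound metalloproteinase, at -0.38 (adjusted p = 0.0582) in the CDH2 comparison. TIMP1, an inhibitor of metalloproteinases, was at -0.60 in CDH2 knockdown (adjusted p = 0.0395) and -0.81 in Cx43 knockdown (0.0702). Without the replicate block TIMP1 (0.00438) and MMP9 (0.00334) were past threshold with Cx43 shRNA.

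Of 12 genes of the integrated stress response, the pathway that acts through ATF4 and induces ATF3, 12 had a value below 0 in CDH2 knockdown and 11 had one for Cx43, with medians of -0.44 and -0.45 beside 0.01 and 0.04 over all genes. Past threshold were CHAC1, a glutathione-degrading enzyme, in CDH2 knockdown, and DDIT3 (CHOP) and ASNS, the asparagine synthetase, in Cx43 knockdown. DDIT3 fell by 0.62 in Cx43 knockdown (adjusted p = 0.0384), from 4.65, 4.67 and 4.64 to 4.04 and 4.03. It was at 4.06, 4.04 and 4.08 in CDH2 knockdown, a difference of -0.59 (adjusted p = 0.0198) that was short of the higher fold change used there. ASNS fell by 0.77 in Cx43 knockdown (adjusted p = 0.0354), and SESN2, a stress-induced sestrin, was at -0.71 (0.0856) there. In CDH2 knockdown ASNS was at -0.33 (adjusted p = 0.0448) and SESN2 at -0.52 (0.0495), each short of the fold change. DDIT4, an inhibitor of mTORC1, was at -0.80 (adjusted p = 0.187) in CDH2 knockdown. An adjusted p under 0.05 was reached by 6 of the 12 genes in CDH2 knockdown (14.3% of all genes) and 2 in Cx43 knockdown (1.21%). For an unadjusted p under 0.05 the counts were 9 and 8, beside 37.5% and 21.6% of all genes. CHAC1 fell by 0.94 in CDH2 knockdown (adjusted p = 0.0449), the least stable of these calls. It was lost in 9 of 16 alternatives, some of which repeat the same fit. The difference was -0.64, short of the fold change, without scramble replicate 3 or CDH2 shRNA replicate 3, and -1.19 without scramble replicate 2. Without the replicate block SESN2 (0.00608), HERPUD1 (0.0106) and CHAC1 (0.04) also passed in Cx43 knockdown. With the block HERPUD1 was at -0.60 there (adjusted p = 0.11). ATF4 had a difference of -0.48 in CDH2 knockdown (adjusted p = 0.0215), also short of the fold change. Both knockdowns share the scramble libraries, so their like directions are not independent of each other. Over the 7 lists, no gene was past threshold in either knockdown without scramble replicate 1, CDH2 shRNA replicate 1 or 2, or either Cx43 library, when 0 to 10 genes in all passed.

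**Figure D5:**
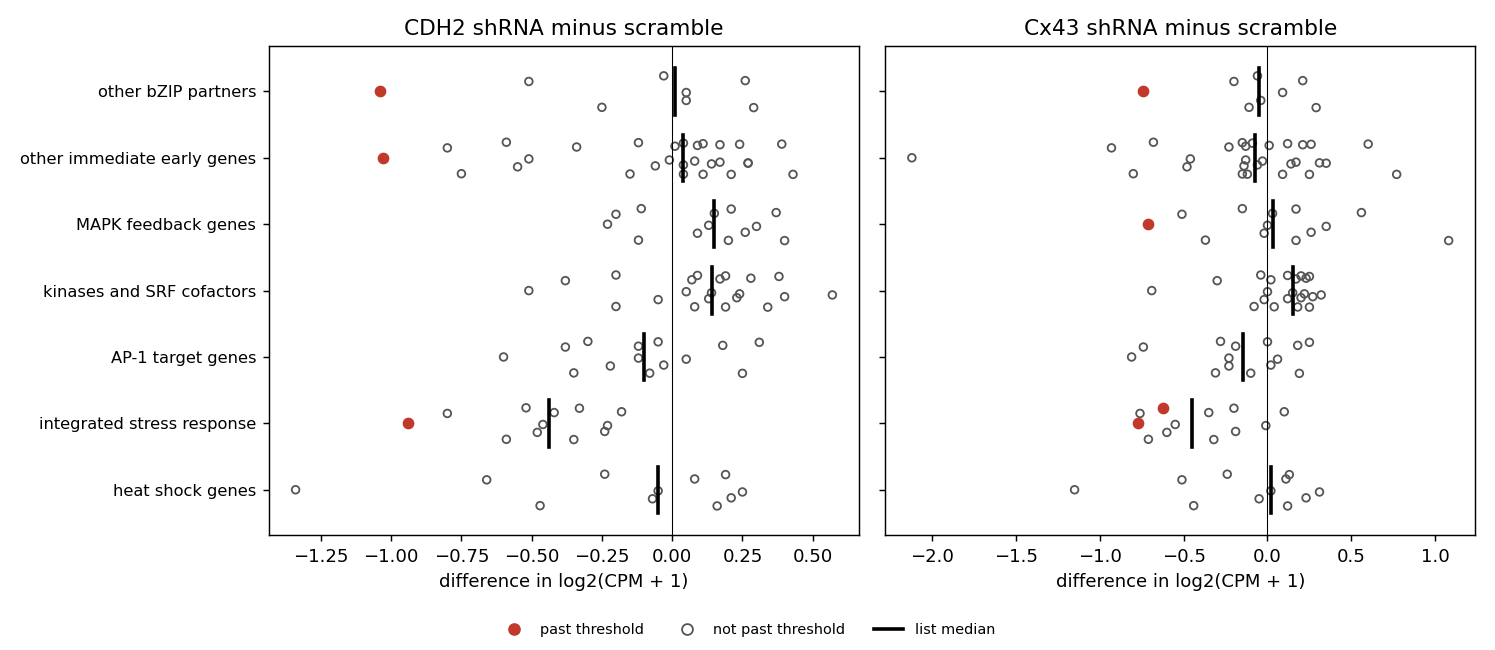
Differences in log2(CPM + 1) (horizontal axis) of the genes of 7 related lists in CDH2 knockdown (left) and Cx43 knockdown (right), with filled red points past threshold, open points not past it and a bar at the median of each list. The median of the integrated stress response list is at -0.44 and -0.45, and those of the other lists are between -0.14 and 0.15.

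The genes whose values over the 8 libraries ran most like those of DUSP1 were KIAA0391 (Pearson's r = 0.998), AC020916.1 (0.996), SNED1 (0.995), F2RL1 (0.994) and NIPSNAP2 (0.994). For JUN they were ICAM1 (0.999), SNN (0.997), YWHAQ (0.996), PPP1R2 (0.995) and PI4K2B (0.995). In Cx43 knockdown 0 of these genes passed the threshold. The 8 values vary along few directions after the run correction and the best of 12939 genes were taken, so such values of r come easily and are a description only.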

How the data were processed

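RNA was sequenced from 3 scramble, 3 CDH2 shRNA and 2 Cx43 shRNA libraries of sorted CSCs. The authors aligned reads to hg38 with STAR (2.6.1 in the submitters' processing notes, another version in the methods). Per the methods they worked in Partek Flow, removed a low-quality sample, log-transformed CPM + 1, corrected for sequencing run and dropped genes with low values. The annotation is not given in the sources used here. The deposited values are log2(CPM + 1). Turned back with base 2, they sum to between 684411 and 727083 CPM per library. A line without a gene name was left out.

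Values of all 12939 genes were fitted with limma 3.58.1 in R 4.3.3 (lmFit, eBayes), with group and replicate number, 3 residual degrees of freedom and two-sided p-values adjusted by Benjamini-Hochberg. Summed over same-numbered libraries, deviations from the group means come to at most 1e-04, which a correction by replicate number would leave. No source states that the numbers are the runs, and the block was kept on this ground. The residuals vary in 2 directions, fewer than the degrees of freedom counted, so the p-values of this fit may be too small. This construction fixes the correlation of same-numbered libraries, so it gives no separate check of pairing. The fit was tested on simulated data with independent noise and replicate offsets, without the cancelling deviations described here. That test cannot tell whether the p-values of these data are too small. Positions and transcript lengths are from GENCODE v44.

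The 10 genes, the related lists and the naming rule were chosen with earlier results of these data known. Named from each list were genes past threshold and up to 4 with the largest differences, and for DUSP1 and JUN the 5 genes with the highest correlation. MYC, EGR3, IER3, CSRNP1, FOSB, ATF4 and HERPUD1 were picked after their values were seen. Alternatives were no replicate block, quantile normalization, median centring, a mean-variance trend, a pseudocount of 0.1, a filter that kept 75% of genes by mean level, only the groups compared, no minimum fold change and leaving out each library.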

Additional observations from a re-analysis of the deposited data

How the results depend on the processing

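Each of the 20 differences of the 10 genes from scramble was taken under 16 alternatives, which gives 320 values. Of these, 274 kept their direction and side of the threshold, 15 became past threshold and 31 changed sign. The alternatives without scramble replicate 3, without CDH2 shRNA replicate 3 and with only replicate numbers 1 and 2 gave the same fit. In Cx43 knockdown, only the groups compared gave the same differences again, with other standard errors. These repeats are counted each time, so the counts are not of separate fits. Changes of sign were in EGR1 in CDH2 knockdown (-0.01 with quantile normalization, -0.29 to 0.36 with 1 library left out), in FOS (-0.40 to 0.17) and FOSL1 (-0.04 to 0.31) there, and in Cx43 knockdown in JUND (-0.04 with quantile normalization, -0.13 to 0.17 with 1 left out), FOSL1 (-0.02 with quantile normalization, -0.06 with only the groups compared, -0.09 to 0.24), EGR1 (0.09 with only the groups compared, -0.52 to 0.33) and ATF3 (0.12 with only the groups compared, -0.47 to 0.45). With only replicate numbers 1 and 2, chosen after seeing the data, FOS (0.17) and FOSL1 (-0.04) changed sign in CDH2 knockdown, as did FOSL1 (-0.06), EGR1 (0.09) and ATF3 (0.12) in Cx43 knockdown. Differences that kept their sign also moved with 1 library left out. In CDH2 knockdown DUSP1 ran from 0.08 to 0.53, JUN from 0.08 to 0.40 and FOSL2 from 0.04 to 0.39. ATF3 ran from -0.54 to -0.05 there, JUNB from -0.34 to -0.03 and JUND from -0.55 to -0.33. In Cx43 knockdown FOSL2 ran from 0.05 to 0.33 and IER2 from -0.12 to -0.03.

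The 10 genes past threshold in Cx43 knockdown were 0 in the fit reported, 2 without the replicate block, 3 with only the groups compared, 3 with replicate numbers 1 and 2, and 0 to 3 with 1 library left out. Between the knockdowns they were 0, 1 with replicate numbers 1 and 2 (DUSP1), and 0 to 2 with 1 library left out. In CDH2 knockdown no alternative called any of them. Over all genes, the counts were 267 in CDH2 knockdown, 153 in Cx43 knockdown and 0 between the knockdowns. They became 532 in Cx43 knockdown and 360 between the knockdowns without the replicate block. With the filter they were 150 and 4 in the 2 knockdowns, and with only the groups compared 0, 741 and 414. They were 1846 in CDH2 knockdown with no minimum fold change, and 723, 730 and 545 with replicate numbers 1 and 2. With 1 library left out they ran from 0 to 723, 0 to 730 and 0 to 545. Genes of the related lists past threshold were 3, 4 and 0. Dropping the replicate block gave 5, 16 and 4. They were 0 in Cx43 knockdown with the filter, 15 in CDH2 knockdown with no minimum fold change, 7, 18 and 6 with replicate numbers 1 and 2, and 0 to 7, 0 to 18 and 0 to 6 with 1 library left out. Of the calls in these lists, CHAC1 was kept in 7 of 16 alternatives and lost in 9. IER5L, DUSP10, DDIT3, ASNS and, in each knockdown, JDP2 were kept in 10 and lost in 6. These counts also hold the repeated fit each time. The cause of these shifts was not tested. Depth is unknown, and the 2 Cx43 libraries and the 2 directions left in the residuals limit the precision.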
